A study of Zea mays with 12 samples.

Results

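The genes described here were 215 annotated maize genes with a higher transcript level in every mop1-1 library than in every wild type (WT) library. They were selected on these same libraries, out of 28534 annotated genes and 38444 features in all, the rest being loci that were assembled from the reads. Levels are in CPM, the counts of a gene scaled to a common library total. A member had a mean of at least 1.0 CPM over the 6 mop1-1 libraries, a mean of at least 1.5 times that of the 6 WT libraries, and a lowest mop1-1 value above the highest WT value. Genes with identifier numbers from 2800 to 3900, the stretch of chromosome 2 around mop1 that tends to be inherited together with the mutation, were left out, as were 4 genes left out by name, 2 of which met the rule. The rule is a choice of genes by their genotype difference, so that difference is given below as a description and without a test.

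The seedlings were maize of the B73 inbred background at the V3 stage, into which the mop1-1 mutation had been introgressed. Homozygous mop1-1 mutants and homozygous WT siblings came from the selfed ear of a heterozygous plant, so both genotypes share that parentage. The roots were put in liquid Murashige and Skoog medium (MS) for 1 h, either alone or with 50 µM abscisic acid (ABA), a plant hormone of drought and salt stress. RNA was taken from the shoots, with 3 biological replicates in each of the 4 groups. The age of the seedlings in days and the number of seedlings in a library were not given in the sources used here, and 1 mutant allele was studied.

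MOP1, mediator of paramutation, is an RNA-dependent RNA polymerase of maize that copies transcripts into double-stranded RNA, from which small interfering RNAs are cut. Those small RNAs guide DNA methylation to transposons and to genes near them, the process known as RNA-directed DNA methylation. Plants that lack MOP1 lose most of these small RNAs, and some silent transposons and genes are transcribed again. The mutation is known for releasing paramutation, the heritable silencing of one allele by another.

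The library totals ranged from 38295994 to 65574775 counts, with a median of 58322593. The chloroplast photosystem factor PSA2 (Zm00001d031738) had a mean of 84.0 CPM in mop1-1 and 93.6 CPM in WT, while Zm00001d054060, matched to a root nitrate transporter gene, had 0.0262 and 0.0759 CPM. The same lookup gave Zm00001d004301, with the phosphate transporter symbol pht3, at 8.05 CPM in mop1-1 and 9.65 CPM in WT. Zm00001d013295 (LOC100273037) had 76.2 and 81.2 CPM. Zm00001d026177 and Zm00001d026178, both matched to LOC541687, had 0.374 and 0.261 CPM and 0.0175 and 0 CPM. Apart from PSA2, no defining leaf marker, such as a Rubisco or PEP carboxylase gene, could be looked up by name. The bulk libraries cannot tell a change in the share of a cell type from a change in RNA per cell.

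The 215 members were 1.22% of the 17646 annotated genes outside the excluded numbers that reached a mean of 1.0 CPM in mop1-1. The same rule with the genotypes exchanged, for genes lower in mop1-1, chose 69 of 17439 genes, or 0.396%. Among the genes that either direction chose, 75.7% were higher in mop1-1. On CPM from column sums, the median ratio of mop1-1 to WT was 1.06 over 17640 genes. These were the genes with WT counts and a mop1-1 mean of at least 1.0 CPM, outside the excluded numbers. TMM factors were 0.9805 to 1.072 in mop1-1 and 0.8774 to 1.036 in WT. The part of this general ratio in the split was not tested beyond the scalings that follow. The split moved with the scaling. With TMM effective library sizes the rule chose 169 higher and 108 lower genes (61.0% higher), and with DESeq2 size factors 167 and 109 (60.5% higher). With TMM and without WT MS replicate 3, it chose 258 higher and 329 lower genes (44.0% higher), where scaling and library set were both changed. TMM kept 164 of the 215 members, and 157 were kept with TMM, with DESeq2 size factors and in all 12 settings that left out 1 library. The 51 that TMM lost had a median ratio of 1.79, while it kept 63 of the 69 members that had a ratio of at least 4 or no WT count. Without WT MS replicate 3 the rule on the CPM of column sums chose 387 higher and 224 lower genes, all 215 members among the former.

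The members were low to moderately expressed genes. Their mean mop1-1 level had a median of 5.89 CPM and a highest value of 164 CPM, against a median of 16.2 CPM over all 17646 genes that could have passed. In WT 75 of the 215 members had a mean under 1 CPM, 87 lay between 1 and 10 CPM and 53 had 10 CPM or more. The ratio of the mop1-1 mean to the WT mean was under 2 for 76 members, from 2 to under 4 for 70, from 4 to under 10 for 45 and at least 10 for 19. A further 5 had no count in any WT library and so had no ratio. Over the 210 members with WT counts the median ratio was 2.64, with an upper quartile of 4.22.

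Low WT level and large ratio went together, which the minimum of 1.0 CPM in mop1-1 helps to set. The median ratio was 64.4 for the 6 members with counts but a mean under 0.1 CPM in WT, 4.86 for the 64 from 0.1 to 1 CPM, 2.18 for the 87 from 1 to 10 CPM and 1.77 for the 53 at 10 CPM or more. Of the 69 genes chosen with the genotypes exchanged, 1 had no mop1-1 count and none of the others had a ratio of 10 or more, with a highest of 7.66. Only 10 of those 69 had a mean under 1 CPM in mop1-1, where 75 of the 215 members had one in WT.

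**Figure D1:**
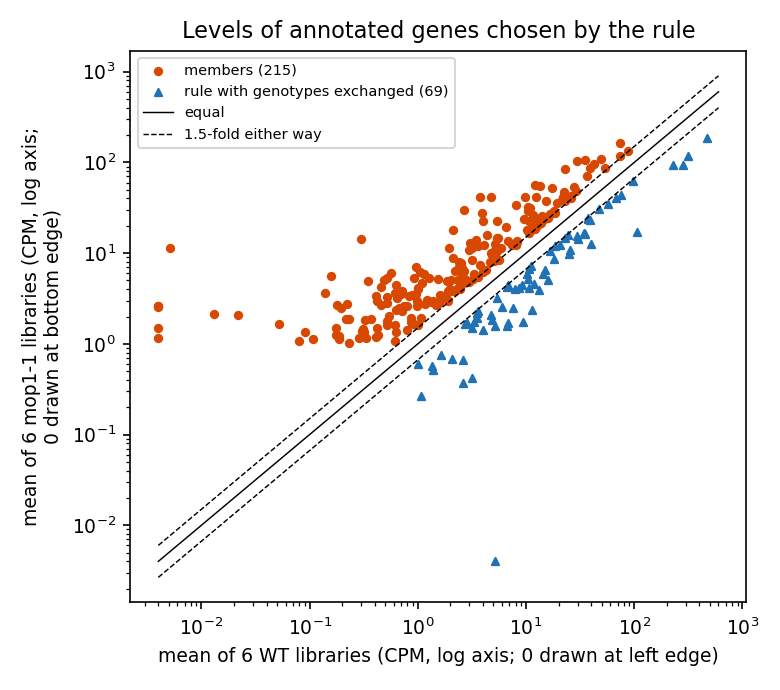
Mean level in the 6 WT libraries (x) and the 6 mop1-1 libraries (y), in CPM on log axes, for the 215 members (circles) and the 69 genes that the same rule chose with genotypes exchanged (triangles), with lines of equal level and of a 1.5-fold difference. The circles reach far to the left at 1 to 12 CPM in mop1-1, with 5 at 0 CPM in WT, while 1 triangle is at 0 CPM in mop1-1.

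The members without a WT count were Zm00001d025140, Zm00001d029769, Zm00001d047778, Zm00001d052541 and Zm00001d053305. Zm00001d025140 was at 3.70, 2.01 and 3.07 CPM in the mop1-1 MS libraries and at 2.31, 1.75 and 2.40 CPM in the mop1-1 ABA libraries. Its 865 mop1-1 counts against 0 in WT put it at least 299-fold higher, with the WT total set at a floor of 3 counts over its 6 libraries, a bound that covers counting error only. The counts were computed from coverage and a count need not be 1 read, so in reads this and the following bounds may be lower. All 6 mop1-1 libraries thus carried a transcript that no WT library showed.

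Zm00001d029769 was at 2.1, 2.28 and 3.05 CPM in mop1-1 MS and at 2.80, 3.24 and 2.2 CPM in mop1-1 ABA. Zm00001d047778 was at 2.15, 2.28 and 3.03 CPM in mop1-1 MS and at 2.87, 3.21 and 2.23 CPM in mop1-1 ABA. The counts of this pair differed by at most 1.03-fold in any mop1-1 library although their identifiers lie on chromosomes 1 and 9, so whether they are separate transcripts or share reads between like copies was not tested. The bounds were at least 307-fold and at least 309-fold higher.

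Zm00001d052541 was the lowest of the 5, at 0.959, 2.15 and 1.07 CPM in mop1-1 MS and 0.774, 1.18 and 0.863 CPM in mop1-1 ABA, at least 137-fold above the WT floor. Zm00001d053305 was at 2.17, 1.15 and 1.60 CPM in mop1-1 MS and 2.2, 1.2 and 0.626 CPM in mop1-1 ABA, at least 175-fold above it. In Zm00001d053305 the range across mop1-1 ABA libraries was wider than the distance between the treatment means.

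Among members with a few WT counts, Zm00001d023657 had the largest ratio. It was at 0 CPM in 5 WT libraries and at 0.0305 CPM in WT ABA replicate 2, which held its only 2 WT counts. The mop1-1 libraries gave 9.25, 10 and 11.1 CPM in MS and 14.5, 12.3 and 11.7 CPM in ABA. The ratio was 2257, with a 95% counting interval from 625 to 18638, and no mop1-1 library was near the WT level. The interval takes each count as 1 read, and is too narrow if the 2 counts stand for fewer reads.

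Zm00001d021017 had its 4 WT counts in 1 library, WT ABA replicate 3 (0.0786 CPM), and 1.16, 2.56 and 1.67 CPM in mop1-1 MS and 0.951, 3.34 and 3.01 CPM in mop1-1 ABA. Zm00001d030672 had 8 WT counts in 4 libraries, none above 0.0799 CPM, and 1.83, 1.5 and 2.86 CPM in mop1-1 MS and 1.23, 3.53 and 1.67 CPM in mop1-1 ABA. The ratios of 161 and 96.8 thus rest on 4 and 8 WT counts and have wide counting error.

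Zm00001d047900 and Zm00001d023257 were transcribed in WT at a low level. Zm00001d047900 was at 0.248, 0.562 and 0.463 CPM in WT MS and 0.278, 0.0915 and 0.137 CPM in WT ABA. It was at 18.1, 18.3 and 18.1 CPM in mop1-1 MS and at 10.3, 11.5 and 9.81 CPM in mop1-1 ABA, and its ratio over both treatments was 48.3. The 3 mop1-1 MS values were close together and all above the 3 of mop1-1 ABA.

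Zm00001d023257 differed more between replicates. The WT MS values were 0.344, 0.0469 and 0 CPM and the WT ABA values 0.0695, 0.122 and 0.353 CPM. In mop1-1 it was at 1.48, 4.03 and 12.2 CPM with MS and at 8.71, 2.53 and 4.72 CPM with ABA. The ratio was 36.0, and its highest and lowest mop1-1 libraries were both in MS.

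**Figure D2:**
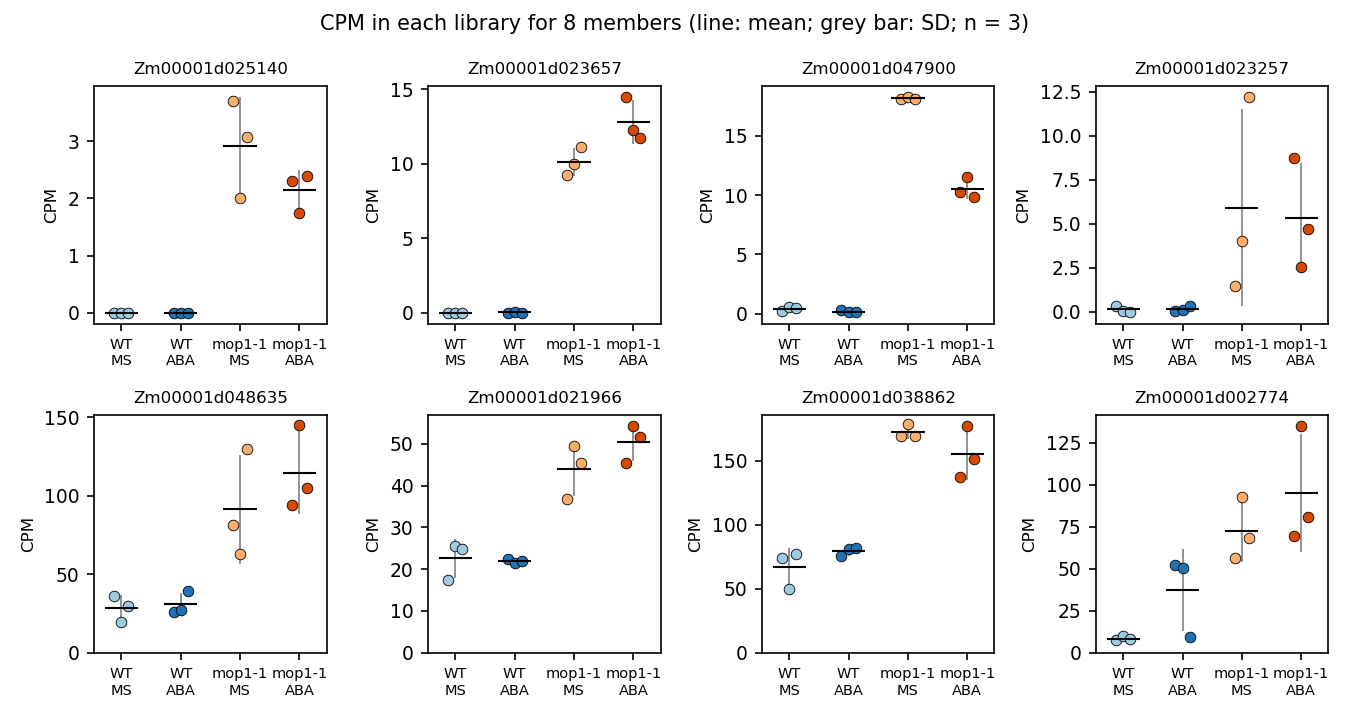
CPM of 8 members in each of the 12 libraries by group, with a line at the mean of 3 libraries and a grey bar of 1 SD. Zm00001d025140 and Zm00001d023657 lie at or near 0 in WT, Zm00001d038862 is present in both genotypes with a ratio of 2.24, and in Zm00001d002774 WT ABA replicate 3 (9.43 CPM) lies apart from the other WT ABA libraries.

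The most abundant members were present in both genotypes with small ratios. Zm00001d038862 was at 73.9, 50.0 and 77.0 CPM in WT MS and 75.3, 80.7 and 82.0 CPM in WT ABA. In mop1-1 it reached 169, 179 and 169 CPM with MS and 137, 177 and 151 CPM with ABA. The means were 73.2 ± 11.8 CPM in WT and 164 ± 16.5 CPM in mop1-1 (SD, n = 6), a ratio of 2.24, and the gap between the genotypes was wider than the range within either.

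The next by level was Zm00001d015852, with 86.6 ± 17.6 CPM in WT and 135 ± 22.4 CPM in mop1-1 (SD, n = 6). Its highest WT library, WT MS replicate 3, was at 109 CPM and its lowest mop1-1 library at 113 CPM, so its groups barely separated, and TMM scaling took it out of the rule. Zm00001d040804 (73.2 and 118 CPM, ratio 1.61), Zm00001d000974 (49.0 and 109 CPM, 2.22), Zm00001d013798 (42.4 and 96.3 CPM, 2.27) and Zm00001d032458 (38.9 and 86.6 CPM, 2.22) had like ratios. All 4 of these met the rule with TMM as well.

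Zm00001d008733 and Zm00001d048635 had larger ratios of 3.0 and 3.48 and a wide spread within mop1-1. Zm00001d008733 was at 81.1, 70.5 and 120 CPM in mop1-1 MS and 63.7, 184 and 111 CPM in mop1-1 ABA, against a WT range from 24.4 to 53.5 CPM. Zm00001d048635 was at 81.1, 63.1 and 130 CPM in mop1-1 MS and 94.4, 145 and 105 CPM in mop1-1 ABA, against 19.3 to 39.4 CPM in WT. In both, mop1-1 ABA replicate 2 was the highest library, the one with the smallest total of 38295994 counts. Zm00001d008733 missed the rule with TMM.

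Outside the 10 most abundant members, Zm00001d030812 (42.0 against 3.75 CPM, ratio 11.2), Zm00001d035222 (41.5 against 4.79 CPM, 8.66) and Zm00001d021081 (29.8 against 2.67 CPM, 11.1) combined a high mop1-1 level with a large ratio. These 3 were picked after their values were seen. The lowest mop1-1 library exceeded the highest WT library 4.51-fold in Zm00001d030812, 3.69-fold in Zm00001d035222 and 5.27-fold in Zm00001d021081.

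A name could be given to few members. An older identifier was paired with 35 of the 215, and 17 of those matched 1 RefSeq gene, 16 protein coding and 1, Zm00001d035080, a transcribed pseudogene. Only Zm00001d021966 had a name rather than a number, Sae2b. SAE2 in budding yeast and its relatives in other organisms act with the MRE11 nuclease complex in trimming the ends of DNA double-strand breaks before they are repaired by recombination.

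Sae2b was at 17.3, 25.5 and 24.9 CPM in WT MS and 22.5, 21.5 and 21.9 CPM in WT ABA. It was at 36.8, 49.5 and 45.5 CPM in mop1-1 MS and 45.5, 54.3 and 51.5 CPM in mop1-1 ABA. The means of 22.3 ± 2.95 and 47.2 ± 6.12 CPM (SD, n = 6) gave a ratio of 2.12, and every mop1-1 library was well above every WT library. Sae2b met the rule with TMM and without any 1 library.

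The other protein coding matches had ratios from 1.59 in Zm00001d042064 (12.3 against 19.6 CPM) to 9.38 in Zm00001d032691 (0.456 against 4.28 CPM). Zm00001d012322 (17.4 against 51.8 CPM) and Zm00001d022092 (12.3 against 41.8 CPM) were the more abundant of those with larger ratios, at 2.97 and 3.40. The pseudogene Zm00001d035080 was at 2.84, 1.48 and 3.27 CPM in WT MS and 1.30, 2.93 and 2.59 CPM in WT ABA. In mop1-1 it was at 8.49, 4.83 and 9.98 CPM with MS and 6.72, 6.21 and 6.19 CPM with ABA, for a ratio of 2.94.

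The genotypes were separated by little in many members. The lowest mop1-1 value was under 1.1 times the highest WT value in 62 of the 215 members and at least 1.5 times it in 67. Just inside the ratio limit lay Zm00001d021960 (1.5002), Zm00001d027166 (1.5033) and Zm00001d008233 (1.5107), and just outside it Zm00001d007533 (1.4915), Zm00001d035253 (1.4872) and Zm00001d035989 (1.4844). At the level minimum, Zm00001d052390 (1.02 CPM) was inside and Zm00001d054112 (0.974 CPM) outside. Zm00001d050798, with 1.08 CPM in mop1-1 against 0.0331 in WT, was outside because its lowest mop1-1 library fell just under the highest WT library.

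The members as a sum took a larger share of the counts in mop1-1, which the rule fixes in advance, so the sums are a description. Their summed CPM was 1533, 1349 and 1731 in the WT MS libraries and 1453, 1521 and 1611 in the WT ABA libraries. It was 3314, 3222 and 3761 in mop1-1 MS and 3378, 4003 and 3458 in mop1-1 ABA. The group means were 1538 ± 191, 1528 ± 79.1, 3433 ± 288 and 3613 ± 340 CPM (SD, n = 3), and within each genotype the MS and ABA ranges overlapped.

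Libraries did not contribute alike to these levels. WT MS replicate 3 held the highest WT value of 70 members, the most of any WT library, and was a median of 0.19 log2 units above the WT mean over the 140 members with a WT mean of at least 1 CPM. In mop1-1, replicate 2 of MS was a median of 0.18 log2 units below the mop1-1 mean (-0.18) and held the lowest value of 53 members, and replicate 1 of MS held that of 52. The part of these libraries in the members' levels was not tested further than by leaving each out.

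**Figure D3:**
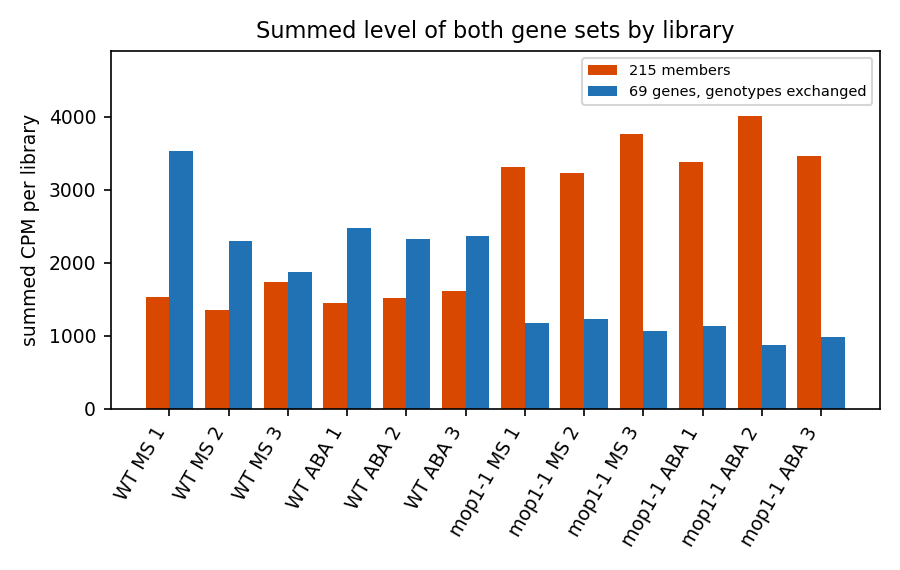
Summed CPM of the 215 members and of the 69 genes chosen with the genotypes exchanged, in each of the 12 libraries. The 6 mop1-1 libraries hold 3222 to 4003 CPM of the members against 1349 to 1731 CPM in WT, and the exchanged genes are highest in WT MS replicate 1 (3529 CPM).

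Replicates of the members were somewhat more variable than those of all annotated genes tested, a comparison not matched for level. The median coefficient of variation over the members was 0.279 in WT with MS and 0.248 with ABA, and in the mutant 0.217 with MS and 0.191 with ABA. Over all annotated genes tested it was 0.208, 0.141, 0.157 and 0.156. The members' median mop1-1 level of 5.89 CPM was below the 16.2 CPM of the genes that could have passed. The part of level in the variation was not tested.

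The genotype difference in each treatment is a value that the rule used. In the fit across all features, the median log2 fold change of mop1-1 against WT over the members was 1.26 in MS (called Group D in the study) and 1.25 in ABA (Group C). All 215 fold changes were positive in each, as the choice of members makes likely, and that choice also bears on the size of both medians. The quasi-likelihood test of edgeR called 54 members in MS, where it called 0.689% of the 26401 features higher in mop1-1, and 53 in ABA, where it called 0.769% higher. DESeq2 called 103 members in MS, against 1.64% of all features, and 107 in ABA, against 1.87%. These counts restate the choice of the members and are no test of it.

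For 208 members a ratio could be had in each treatment. The MS and ABA ratios were within 1.5 times of each other in 144 and over 2 times apart in 25, with 97 larger in MS and 109 larger in ABA. Zm00001d019758 was the widest of the named ones, at a ratio of 69.9 in MS and 5.08 in ABA. Zm00001d021966 (Sae2b), at 1.95 and 2.30, was typical.

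To read a genotype difference in the other treatment, the rule was applied to the 6 libraries of 1 treatment and read in those of the other. The fit took its estimate of spread from all 12 libraries, those that chose the genes included, so the calls are not independent of the choice. The shares over all features include assembled loci and features under the 1.0 CPM minimum. They are thus not matched to the chosen genes, and the shares below are a description and no test of the members. Among the 19500 annotated genes tested, edgeR called 81 higher in ABA and 69 higher in MS. On the MS libraries alone it chose 541 genes as higher in mop1-1, 194 of them members. Of the 537 tested in ABA, edgeR called 53 higher in mop1-1 (adjusted p within 0.05 and 0.95 or more on the log2 scale). That is 9.87%, against 0.769% of all features, and their median log2 fold change was 0.66. DESeq2 called 120 of them (22.3%), against 1.87% of all features. On the ABA libraries alone the rule chose 1048 genes, 200 of them members, of which 52 (4.96%) were called higher in MS against 0.689% of all features, with a median of 0.34. DESeq2 called 111 of these (10.6%), against 1.64%.

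Genes chosen as lower in mop1-1 could also be read in the other treatment. Of the 289 chosen in MS and tested in ABA, 25 (8.65%) were called lower against 0.424% of all features, and of the 797 chosen in ABA, 21 (2.63%) were called lower in MS against 0.216%. DESeq2 called 52 (18.0%) against 1.45% of all features, and 65 (8.16%) against 0.773%. Among the 19500 annotated genes tested, edgeR called 87 lower in ABA and 36 lower in MS. Both directions had larger shares than all features, with the same limits as above, and the difference between the directions was not tested.

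The next question was whether 1 h of ABA moved the members in either genotype. No member was called by edgeR in mop1-1 (Group A), in WT (Group B), in the average over the genotypes or in the interaction of genotype and ABA. The test called 0% of all 26401 features in each of the 4 comparisons too. The study, with edgeR at the same thresholds, did report called genes in Group A and in Group B. The reason for this difference was not tested. At an unadjusted p under 0.05, 7 members (3.26%) were listed in mop1-1, 15 (6.98%) in WT, 9 (4.19%) in the average and 9 (4.19%) in the interaction. The shares over all features were 3.83%, 7.15%, 6.93% and 4.24%.

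The members' ABA effects were centred near 0. Their median log2 fold change was -0.07 in mop1-1, -0.04 in WT, -0.05 on average and -0.01 in the interaction, against medians within 0.01 of 0 over all features. All 3 ABA libraries were above all 3 MS libraries of mop1-1 in 8 members (3.72%), where 8.33% of all features were so placed, and below them in 12 (5.58%) against 3.09%. In WT the ABA libraries were all higher in 5 members (2.33%) against 6.98%, and all lower in 7 (3.26%) against 3.97%. These placements are on CPM from column sums, whereas the fold changes were fitted after TMM, so they are on different scales. The TMM factors were 1.072, 1.047 and 1.047 in mop1-1 ABA and 1.001, 0.9805 and 1.038 in mop1-1 MS. The part of scaling in the placements, of the members and of all features, was not tested.

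**Figure D4:**
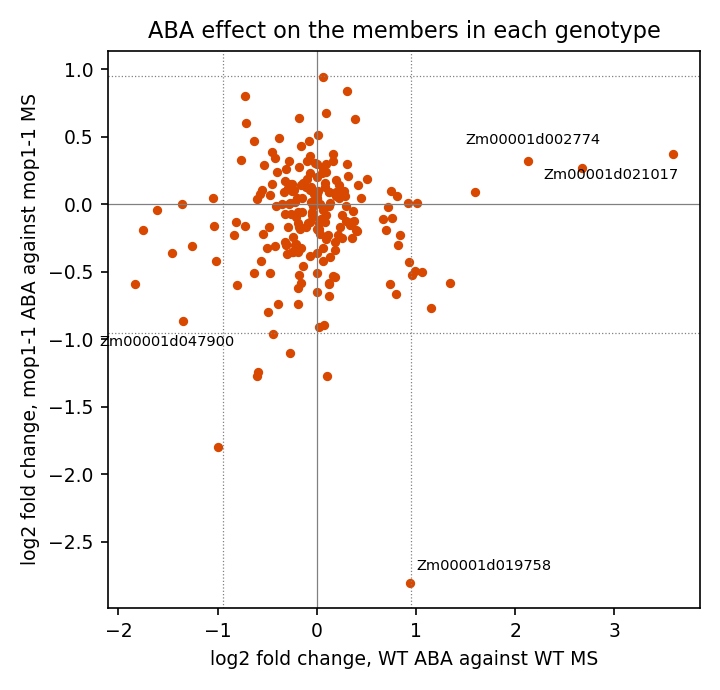
The log2 fold change of ABA against MS in WT (x) and in mop1-1 (y) for the 215 members, each a point, from the edgeR fit, with dotted lines at 0.95 either way. Most points lie near 0 on both axes, none passed the test, and the labelled outlying members include Zm00001d021017, which has 4 WT counts, and Zm00001d019758.

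Zm00001d047900 had the smallest unadjusted p of the members in mop1-1 (0.00780) and in the average (3.61e-04), from edgeR's quasi-likelihood test. Its log2 fold change with ABA was -0.86 (SE 0.27) in mop1-1, -1.35 (SE 0.36) in WT and -1.11 (SE 0.23) on average, with adjusted p-values of 1.00, 0.504 and 0.579 from edgeR. DESeq2 called it in the average, at -1.12 (SE 0.22, adjusted p 0.00118), the only member it called in any of the 4 ABA comparisons. DESeq2 called 0.129% of all features there, 0.0492% in mop1-1, 0.258% in WT and 0.102% in the interaction. As the values above show, the 3 ABA libraries of mop1-1 lay below all 3 of its MS libraries, while in WT the highest ABA library (0.278 CPM) was above the lowest MS library (0.248 CPM).

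Zm00001d002774 had the smallest p among the members in WT (0.00138 unadjusted, from edgeR's quasi-likelihood test). It was at 7.46, 9.90 and 8.04 CPM in WT MS and at 52.0, 50.7 and 9.43 CPM in WT ABA, so WT ABA replicate 3 was at the MS level. In mop1-1 it was at 56.3, 93.0 and 68.2 CPM with MS and 69.4, 135 and 81.0 CPM with ABA. The WT log2 fold change was 2.13 (SE 0.52, edgeR adjusted p 0.502) and the interaction -1.81 (SE 0.70, adjusted p 1.00).

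Without WT ABA replicate 3 the WT change of Zm00001d002774 was 2.60 on the log2 scale and was called. WT ABA replicates 1 and 2 nearly reached its lowest mop1-1 value. Its identifier number, 2774, lies just below the excluded numbers that begin at 2800, and its linkage to mop1 was not tested.

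Zm00001d044122 had the smallest p of the interaction. It was at 3.30, 3.23 and 2.65 CPM in WT MS and 6.62, 4.94 and 5.30 CPM in WT ABA, with no overlap. In mop1-1 it was at 17.2, 13.4 and 20.1 CPM with MS and 18.2, 16.1 and 11 CPM with ABA, where the treatments overlapped. The log2 fold change was 0.84 (SE 0.23, edgeR adjusted p 0.522) in WT and the interaction -1.07 (SE 0.32, adjusted p 1.00).

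Zm00001d019758 was at 11.8, 3.48 and 3.47 CPM in mop1-1 MS and 1.58, 0.679 and 0.575 CPM in mop1-1 ABA, with no overlap. In WT it was under 0.5 CPM in each library, at 0.191, 0.0781 and 0 CPM with MS and 0, 0.107 and 0.452 CPM with ABA. The log2 fold change in mop1-1 was -2.80 (SE 1.01, edgeR adjusted p 1.00), with 1 MS library well above the other two. Zm00001d010284 had the same form, at 12.1, 2.68 and 5.57 CPM in mop1-1 MS and 1.85, 2.35 and 1.91 CPM in mop1-1 ABA (-1.80, SE 0.70, adjusted p 1.00).

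Zm00001d033505 was among the members with a small p in mop1-1 and a positive value, at 16.9, 17.2 and 22.3 CPM with MS and 23.9, 30.6 and 29.5 CPM with ABA (0.51, SE 0.17, edgeR adjusted p 1.00). Its WT change was 0.01 (SE 0.17). Zm00001d023263 was at 0.859, 0.843 and 0.703 CPM in WT MS and 0.417, 0.183 and 0.0786 CPM in WT ABA (-1.83, SE 0.59, adjusted p 0.567). These were differences without overlap that did not pass the test over all features.

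The members were found on every chromosome. The chromosome was estimated from the RefSeq genes matched to the nearest identifier numbers, since these numbers follow the order of genes in the B73 version 4 annotation. Members were 0.896% of the tested annotated genes on chromosome 4, the lowest share, and 1.36% on chromosome 7, the highest, with 20 members (2.03%) among numbers that could not be placed. The exchanged genes ranged from 0.195% on chromosome 7 to 0.742% on chromosome 10. Of the annotated genes tested inside the excluded numbers, 14 of 417 (3.36%) met the rule and 18 (4.32%) the exchanged rule, so both directions were more frequent there.

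**Figure D5:**
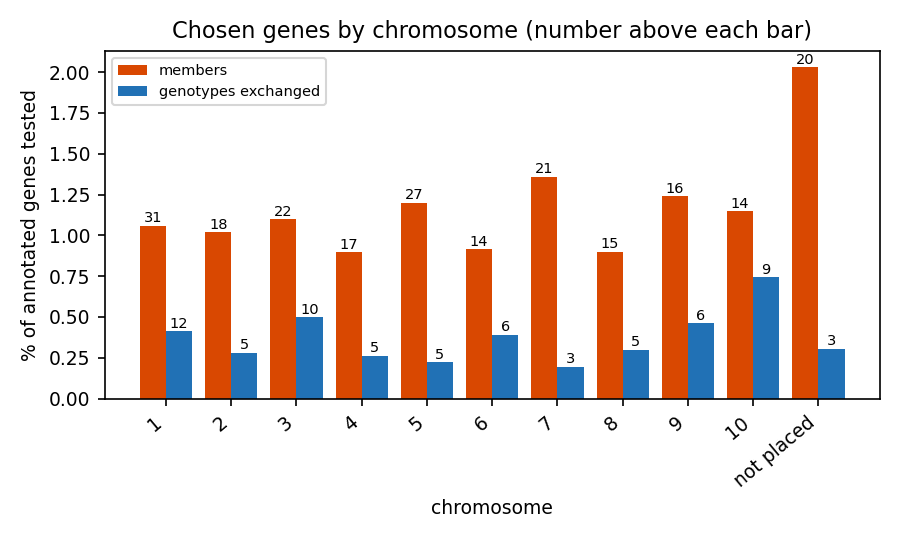
Share of the tested annotated genes on each chromosome, in %, that were members or were chosen with the genotypes exchanged, with the number of genes above each bar. The members' share lies between 0.896% and 1.36% on the 10 chromosomes, and is 2.03% among the 983 genes that could not be placed.

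Some members were numbered next to each other. A second member lay within 10 identifier numbers of 37 of the 215 (17.2%), while 7.87% of all tested annotated genes outside the excluded numbers lay as close to a member. These 37 formed 17 runs. Within 10 numbers of an exchanged gene lay 8 members (3.72%) against 2.90% of tested genes. The 1464 other tested genes within 10 numbers of a member had a median log2 ratio of 0.09, against 0.07 over all tested genes that were no members.

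The longest run held 4 members on chromosome 4, Zm00001d048625, Zm00001d048635, Zm00001d048636 and Zm00001d048639, out of 7 tested genes in that span. Their ratios were 3.05, 3.48, 3.39 and 1.60 and their mop1-1 means 32.1, 103, 5.15 and 85.8 CPM. Zm00001d048625 was at 7.67, 5.09 and 14.9 CPM in WT MS and 14.4, 13.7 and 7.44 CPM in WT ABA. In mop1-1 it was at 40.9, 25.8 and 28.5 CPM with MS and 53.6, 26.5 and 17.0 CPM with ABA. Its lowest mop1-1 library was thus close to its highest WT library, and Zm00001d048639 missed the rule with TMM.

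On chromosome 10 a run of 3 was made up of Zm00001d023254, Zm00001d023257 and Zm00001d023263, with ratios of 10.4, 36.0 and 3.14. Zm00001d023254 was at 0.897, 0.141 and 0.399 CPM in WT MS and 0.661, 0.488 and 0.334 CPM in WT ABA. It was at 2.74, 3.18 and 9.89 CPM in mop1-1 MS and 5.98, 4.47 and 3.99 CPM in mop1-1 ABA. Mop1-1 MS replicate 3 was the highest mop1-1 library of all 3 genes.

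Several pairs had consecutive numbers. Zm00001d013616 and Zm00001d013617 had nearly the same counts, which differed by at most 1.13-fold in any mop1-1 library, at means of 1.87 and 1.90 CPM against 0.216 and 0.229 CPM in WT. Whether the gene models share reads was not tested. The pairs Zm00001d028815 and Zm00001d028816 (ratios 2.67 and 7.02), Zm00001d016840 and Zm00001d016841 (15.1 and 1.92) and Zm00001d046186 and Zm00001d046187 (4.23 and 2.69) had unlike ratios and levels. In each of these 3 pairs the gene with the larger ratio had the lower WT level.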

How the data were processed

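Shoot RNA of 12 maize seedling libraries was sequenced as 150 bp read pairs. The authors checked the reads with fastp 0.21.0, trimmed adapters, mapped to B73 version 4 with HISAT2 2.2.1, and assembled and quantified transcripts with StringTie 2.1.4. They deposited whole-number counts per gene or assembled locus, computed from coverage, so that reads of overlapping or near-identical genes could be divided between them. Whether the counting used strand is not given in the sources used here.

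CPM were computed from column sums. For tests, features with 0.58 CPM in at least 3 libraries were kept (26401, with 19500 annotated), normalized by TMM and fitted to 4 group means with edgeR 4.0.16 (R 4.3.3, quasi-likelihood test, Benjamini-Hochberg adjustment, after the study's thresholds of 0.05 and 0.95). DESeq2 1.42.0 was an alternative. TMM factors ranged from 0.8774 to 1.072. Replicates differed by a chi-square of 30.6 to 186 per degree of freedom, so none was a copy. The highest values, 186 and 149, were the pairs of WT MS replicate 3 with replicates 1 and 2, and no other pair exceeded 86.8. The replicate numbers did not pair samples.

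Members and lists were chosen with earlier results of these data known. Named members were those with the 10 largest ratios, the 10 highest mop1-1 levels or no WT count, those nearest to a threshold, the 4 with the smallest p in each ABA comparison, up to 15 matched to RefSeq (NAM-5.0), and those within 10 identifier numbers of each other. Lists of gene functions and promoter motifs were not run, for lack of descriptions and sequences. The level of mop1 itself is not reported here.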

Additional observations from a re-analysis of the deposited data

How the results depend on the processing

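The number of members was 139 with a ratio of at least 2, 122 with a minimum of 5 CPM, 541 on the MS libraries alone and 1048 on the ABA libraries alone, the last pair of settings chosen after seeing the data. It ranged from 220 to 387 over the settings that left out 1 library, the highest without WT MS replicate 3. The number of genes lower in mop1-1, 69 as reported, was 108 with TMM, 109 with DESeq2 size factors, 40 with a ratio of at least 2, 290 on the MS libraries alone, 797 on the ABA libraries alone and 329 with TMM and without WT MS replicate 3, a setting also chosen after seeing the data. Without 1 library it ranged from 71 to 224, with 110 without WT MS replicate 1 and 224 without WT MS replicate 3. The removed library itself widens the rule, since 1 value fewer must be separated.

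The number of members called for ABA in WT ranged from 0 to 1 without 1 library, with Zm00001d002774 called without WT ABA replicate 3, and DESeq2 called 1 member in the average. The other counts of members called for ABA were 0 under each alternative, RLE normalization, no low-count filter, filterByExpr, annotated genes alone and no fold threshold included. The median genotype difference in MS ranged from 1.22 to 1.38 (1.38 without mop1-1 MS replicate 2, 1.37 without WT MS replicate 1, 1.36 without WT MS replicate 3). Same-numbered libraries did not deviate together (correlations from -0.162 to 0.088, others from -0.207 to 0.164), and a fit with the replicate block called 0 members in each ABA comparison. Of 6162 values for 79 named members, 6116 stayed on their side of the threshold or, for a genotype difference, within 1 SE. A further 45 genotype differences moved by more than 1 SE, 1 value became a call and 0 reversed. Reversal was checked for genotype differences and for ABA values called in either fit. The direction of ABA values that neither fit called was not compared. With 3 libraries a group and a median SE of 0.35 for ABA in mop1-1, small ABA effects on single members could not be detected. Larger ones could be missed as well. The edgeR test called 0% of the 26401 features in each ABA comparison, and Zm00001d019758, at -2.80 (SE 1.01) in mop1-1, was not called.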
